A study of Arabidopsis thaliana with 12 samples.

Results

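Chlorophyll is the green pigment that plants must both build and dismantle, and the genes for the enzymes of both routes were followed here in seedlings of Arabidopsis thaliana given abscisic acid (ABA), the hormone of drought and seed dormancy. The set holds 33 of the 33602 genes of the count table and was chosen by function, with earlier results of these data known. The first 23 (HEMA1 to CHLG) make chlorophyll and the last 10 (NYC1 to CLH2) break it down, and the 2 arms were compared with and without ABA in each genotype. Of the 33 genes, 32 passed the filter on low counts. PORA (AT5G54190), which had between 1 and 18 reads in each library, did not pass and is given below by its level only.

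RNA was sequenced from 12 libraries, with 3 for each of 4 groups: untreated wild type, wild type with ABA, untreated mutant and mutant with ABA. The wild type is Col-0, the parent line in which the mutations were made by gene editing. The mutant is OK100-oct, a single line that carries null mutations in 8 RAF protein kinase genes, namely RAF3, RAF4 and RAF5 (also called SIS8) of the B3 subgroup and RAF7 to RAF11 of the B2 subgroup, and these kinases switch on the SnRK2 kinases of the ABA pathway. The labels call the mutant m9, and it was taken as OK100-oct because the study names that line as the one sequenced. The label alone would also allow OK100-nonu, another line of the study that lacks RAF6 in addition. Both genotypes were whole seedlings, and the labels give an age of 12 days for all 4 groups, while the study's methods give an older age. The dose and duration of ABA are not given in the sources used here for these libraries.

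Total counts per library lay between 16632701 and 26661613. Among the 8 mutated kinase genes, counts of 5 were reduced in the untreated mutant at an FDR < 0.05, and none of the 8 was increased. This was 62.5% of them, where 2.29% of all tested genes were lower. The replicates differed by more than sampling noise. Wild-type control replicate 3 stood apart from replicates 1 and 2 of its group, with a chi-square per gene of 27.4 and 46.8 against them, compared with 13.7 between those 2. OK100-oct control replicate 1 was also apart, with 24.6 and 14.7 against replicates 2 and 3, compared with 9.02 between those 2. Counts without either library are given with the results. All 5 markers of green tissue were lower with ABA in the wild type, where 36.4% of all tested genes were lower. Of the 5, 2 were lower with ABA in OK100-oct (40%, against 26.1%). The summed level of the 5 in the wild type was 18650 to 19790 CPM (counts scaled to a common library size) under control conditions and 11750 to 12750 with ABA. In OK100-oct it was 20460 to 24400 and 17650 to 19170 CPM. The summed level of 6 root markers was 53.4 to 68.5 CPM and 79.4 to 81.7 with ABA in the wild type. In OK100-oct the root sum was 65.8 to 75.6 and 75.2 to 94.8 CPM. Of the 6, 2 rose in the wild type (33.3%, near the 32.2% of all tested genes). In OK100-oct 3 rose (50%, against 25.9%). The part of both lists in the results below was not tested. Whole seedlings hold many cell types, so fewer green cells and less RNA per cell cannot be told apart.

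Chlorophyll is made in the plastid. Glutamate, carried on a transfer RNA, is turned into 5-aminolevulinic acid, and these units are joined into the ring protoporphyrin IX. Magnesium chelatase inserts the metal, later steps close the fifth ring and reduce the molecule in the light, and a long phytol tail is attached last. Breakdown starts by turning chlorophyll b back into chlorophyll a and by pulling out the magnesium, then removes the tail, opens the ring and exports colourless products to the vacuole. In leaves this route is best known from senescence, when leaves turn yellow.

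The stretches of DNA upstream of 4 of the genes are shown first, because their letters can be set against the values that follow. ABA-activated bZIP factors (the ABFs and ABI5) bind DNA with an ACGT core, and many light-responsive genes carry the same core. In each stretch of 150 bases before the annotated start, written 5′ to 3′ on the gene's own strand, capitals mark the G-box CACGTG and the ABA-responsive elements ACGTGGC and ACGTGTC on either strand, which can overlap. SGR2 and SGR1 are shown as paralogs with and without a match, and CAO and CRD1 as synthesis genes with matches at the same distance from the start. The sequences were read from the TAIR10.1 assembly with RefSeq gene models.
SGR2 (chr4:7156000-7156149, plus strand): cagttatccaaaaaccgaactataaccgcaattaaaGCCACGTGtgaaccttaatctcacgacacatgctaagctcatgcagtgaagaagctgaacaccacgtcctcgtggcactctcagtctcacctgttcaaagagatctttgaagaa
SGR1 (chr4:12018644-12018793, minus strand): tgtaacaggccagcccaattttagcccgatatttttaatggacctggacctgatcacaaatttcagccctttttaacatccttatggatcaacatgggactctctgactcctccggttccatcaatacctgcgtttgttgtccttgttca
CAO (chr1:16851272-16851421, minus strand): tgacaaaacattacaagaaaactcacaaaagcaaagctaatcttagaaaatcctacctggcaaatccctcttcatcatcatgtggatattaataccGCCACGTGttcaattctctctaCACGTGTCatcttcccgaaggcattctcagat
CRD1 (chr3:21076355-21076504, plus strand): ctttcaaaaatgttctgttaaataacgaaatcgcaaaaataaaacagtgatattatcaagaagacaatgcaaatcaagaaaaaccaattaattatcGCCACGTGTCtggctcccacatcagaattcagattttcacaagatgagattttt
In the windows of 300 bases (250 before and 50 after the start), 3 of the 10 breakdown genes and 6 of the 23 synthesis genes held at least 1 of these 3 motifs, as did 11.2% of 27443 windows of protein-coding genes. The G-box lay in the windows of SGR2, NOL and NYC1 among the breakdown genes, and of HEMD, CRD1 and CAO among the synthesis genes, against 7.68% of all windows. ACGTGGC was held by 5 synthesis and 2 breakdown genes (4.08% of all windows), and ACGTGTC by 2 and 1 (4.33%). CCAATC, the sequence linked to GLK factors, lay in 6 synthesis windows and no breakdown window (12.3% of all windows), and the I-box GATAAG in 6 and 1 (14.6%). A match is a description of the letters only.

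Under control conditions most synthesis genes were at higher levels than most breakdown genes. Per kilobase of exon, the mean level in the wild type was 958 CPM for CRD1 (AT3G56940), the cyclase that forms the fifth ring, and 241 CPM for PORB (AT4G27440), the light-dependent oxidoreductase. NYC1 (AT4G13250), a chlorophyll b reductase, was the fourth of the 33 genes at 192 CPM per kilobase, ahead of all other breakdown genes. The next breakdown genes were RCCR (31.4) and PAO (31.3), and the lowest of the arm was SGR2 (0.718). Among the synthesis genes, CHLI2 (32.2) was just above RCCR, HEMD (22.0) was below it, and PORA (0.288) was the lowest of the 33. With ABA the mean of NYC1 in the wild type reached 432 CPM per kilobase and was exceeded only by that of CRD1 (881) among the 33 genes.

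The question of how ABA shifts the 2 arms was first answered by their level in each library, taken as the mean of log2(CPM + 1) over the genes of an arm. In the wild type, the synthesis arm was at 7.13, 7.20 and 6.87 under control conditions and at 6.50, 6.52 and 6.48 with ABA. The breakdown arm was at 4.69, 4.63 and 4.89 under control conditions and at 5.94, 5.86 and 5.95 with ABA. The 2 arms therefore moved in opposite directions, with no overlap between the groups in either arm. In OK100-oct, the synthesis arm was at 7.23, 7.10 and 7.27 under control conditions and at 6.92, 6.97 and 6.86 with ABA. The breakdown arm of OK100-oct was at 4.60, 4.78 and 4.77, and at 5.33, 5.33 and 5.28 with ABA. The groups again did not overlap.

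The gap between the arms, breakdown minus synthesis, was -2.33 ± 0.32 (SD, n = 3) in untreated wild-type seedlings and -0.58 ± 0.07 (SD, n = 3) with ABA. In OK100-oct it was -2.48 ± 0.15 (SD, n = 3) and -1.60 ± 0.03 (SD, n = 3). Within each group the 3 values lay close together, except in the wild-type control, where replicate 3 was at -1.97 against -2.44 and -2.57. These levels are a description on the log2 scale and were not tested.

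**Figure D1:**
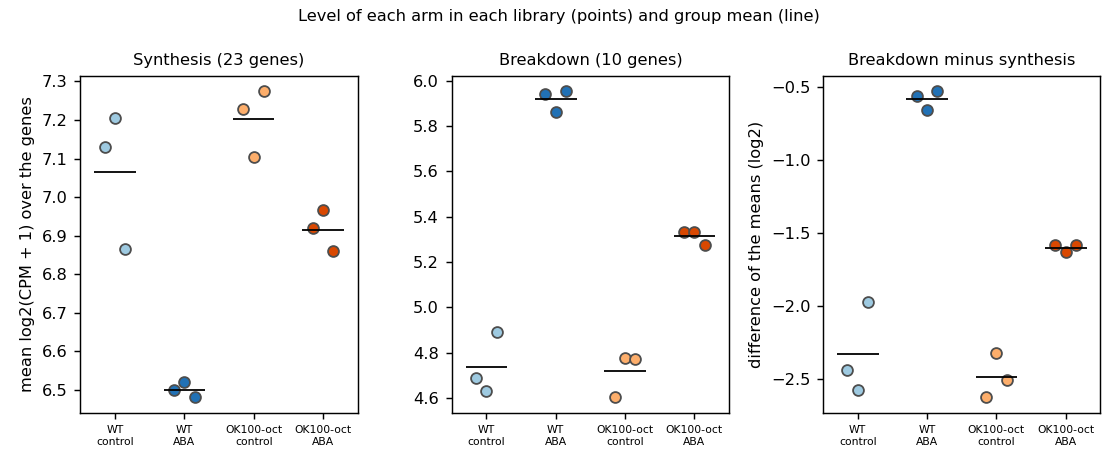
Mean log2(CPM + 1) over the 23 synthesis genes (left) and the 10 breakdown genes (middle) and their difference (right) in each of the 12 libraries, with points for libraries and lines for group means; the vertical axes do not start at 0. With ABA, the gap between the arms narrowed from -2.33 to -0.58 in the wild type and from -2.48 to -1.60 in OK100-oct.

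In the wild type, 16 of the 22 synthesis genes tested fell with ABA and 2 rose, at an FDR < 0.05 in edgeR's quasi-likelihood test over all genes. This was 72.7% of the genes tested in the arm, where 36.4% of all tested genes fell and 32.2% rose. Of the 10 breakdown genes, 8 rose and 1 fell, or 80% and 10%. The median log2 fold change was -0.76 over the synthesis genes and 1.14 over the breakdown genes, against -0.06 over all 20617 tested genes. None of the synthesis genes reached a 3-fold change, whereas 4 breakdown genes rose and 1 fell by at least 3-fold. Across all tested genes, 7.18% rose and 7.16% fell by that much. Without wild-type control replicate 3, each of these counts for the members was the same, and the medians were -0.84 and 1.32.

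The 16 synthesis genes that fell were spread from the second step to the last, while HEMA1, HEMD, CHLD and CRD1 did not pass the test and GUN4 and CAO rose. The first enzyme, glutamyl-tRNA reductase, is encoded by HEMA1 (AT1G58290), which was at 215 to 229 CPM under control conditions and 210 to 232 CPM with ABA in the wild type. Its log2 fold change was -0.01 (standard error 0.09), so the gene for the entry step did not pass the test. The aminotransferase genes of the next step, GSA1 (AT5G63570) and GSA2 (AT3G48730), both fell, by 1.01 and 1.18 on the log2 scale. HEMB1 (AT1G69740), HEMC (AT5G08280), HEME1 (AT3G14930), HEME2 (AT2G40490), HEMF1 (AT1G03475) and HEMG1 (AT4G01690), which take the pathway to protoporphyrin IX, all fell, with log2 fold changes from -0.98 for HEMF1 to -0.41 for HEMG1. HEMD (AT2G26540), the uroporphyrinogen III synthase between them, was the exception, with a log2 fold change of -0.09 (standard error 0.08). Library totals in place of TMM factors lower all values of the wild type by about 0.3 on the log2 scale, and with them HEMA1 (-0.32), HEMD (-0.40) and CRD1 (-0.43) fell as well.

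Magnesium chelatase has 3 kinds of subunit, and they did not move together. CHLH (AT5G13630), the large subunit that binds the porphyrin, was at 873, 1032 and 677 CPM in the wild-type control libraries and at 465, 456 and 407 CPM with ABA. All 3 ABA libraries were below all 3 control libraries, and the log2 fold change was -0.96 (standard error 0.14, edgeR FDR = 3.62e-05). The genes of the ATPase subunit I, CHLI1 (AT4G18480) and CHLI2 (AT5G45930), fell 2.15-fold and 2.07-fold. CHLD (AT1G08520), the gene of subunit D, had a log2 fold change of 0.10 (standard error 0.09) and did not pass the test. This sign depended on the scaling, since with library totals in place of TMM factors the value was -0.21 and passed the test.

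GUN4 (AT3G59400), which helps the chelatase to bind its porphyrin, was the only gene of this step that rose. It was at 98.7, 65.1 and 81.0 CPM under control conditions and at 124, 129 and 98.5 CPM with ABA, so the groups overlapped slightly. Its log2 fold change was 0.52 (standard error 0.14, edgeR FDR = 0.00423), and with library totals in place of TMM factors it was 0.21 and did not pass. Of its exon sequence, 71.9% of 50-base windows are shared with AT3G59410 on the opposite strand. Whether the counting used strand is not given in the sources used here, so reads of the 2 genes may not be separated. AT3G59410 itself had a log2 fold change of 0.20 in the wild type and did not pass the test.

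After the chelatase, CHLM (AT4G25080), the methyltransferase, was at 210, 239 and 225 CPM under control conditions and at 139, 127 and 132 CPM with ABA. The 2 groups were far apart, with a log2 fold change of -0.76 (standard error 0.08, edgeR FDR = 2.00e-06). CRD1 did not pass the test, with 1405 to 1471 CPM under control conditions, 1217 to 1386 CPM with ABA and a log2 fold change of -0.12 (standard error 0.10). DVR (AT5G18660), the divinyl reductase, had the largest fall of the arm. It was at 81.3, 81.4 and 52.4 CPM under control conditions and at 25.4, 34.9 and 31.6 CPM with ABA. Its log2 fold change was -1.23 (standard error 0.17, edgeR FDR = 2.32e-05), a 2.34-fold fall, and it was -1.41 without wild-type control replicate 3.

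The light-dependent step is made by 3 related oxidoreductases. PORA, the form of dark-grown seedlings, was at 0.144 to 0.902 CPM in the wild-type control libraries and at 0.0456 to 0.167 CPM with ABA. PORB was at 428, 469 and 292 CPM under control conditions and at 195, 243 and 177 CPM with ABA. PORB fell with a log2 fold change of -0.95 (standard error 0.17, edgeR FDR = 0.000259), and PORC (AT1G03630) fell by 0.90. CHLG (AT3G51820), the synthase that adds the phytol tail, fell by 0.65.

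Like GUN4, CAO (AT1G44446), the oxygenase that turns chlorophyll a into chlorophyll b, rose while most of the arm fell. It was at 102, 106 and 95.5 CPM under control conditions and at 187, 176 and 170 CPM with ABA. No library of one group reached the other, and the log2 fold change was 0.82 (standard error 0.09, edgeR FDR = 1.99e-06). CAO and CRD1 both carry the run GCCACGTG with its first base 54 bases before the start, as printed above, and CAO carries a second G-box at -32. CAO rose while CRD1 did not pass the test.

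**Figure D2:**
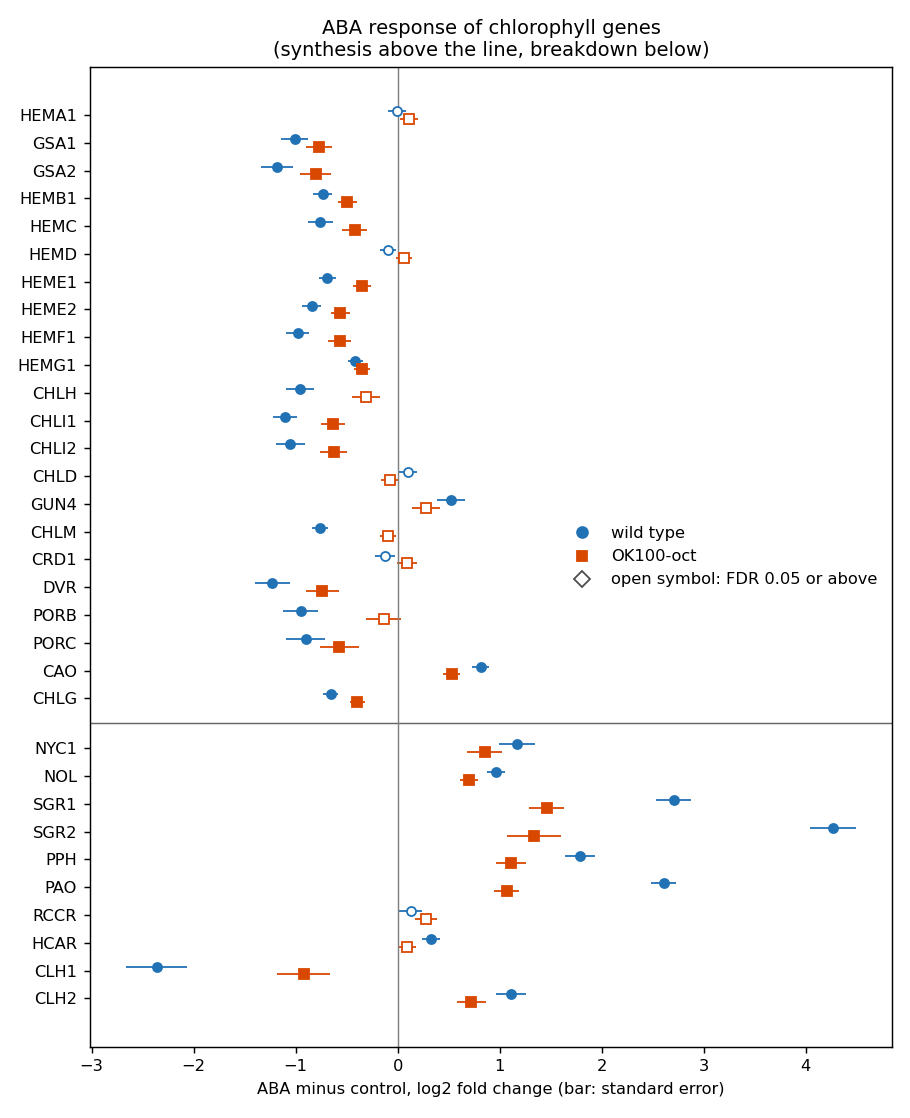
Log2 fold change with ABA against control (horizontal axis) for the 32 tested genes in the wild type (circles) and OK100-oct (squares), with bars for the standard error and open symbols where the FDR was 0.05 or above. Synthesis genes lie mostly between -1.23 and 0 in the wild type, breakdown genes reach 4.27 for SGR2, and CLH1 lies at -2.36.

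Among the breakdown genes the largest rises in the wild type were at the removal of magnesium and the opening of the ring. SGR1 (AT4G22920, chromosome 4, bases 12016420 to 12018643 on the minus strand) and SGR2 (AT4G11910, chromosome 4, bases 7156150 to 7158047 on the plus strand) encode STAY-GREEN proteins, which are magnesium dechelatases. SGR1 was at 8.62, 10.5 and 14.7 CPM under control conditions and at 77.0, 68.7 and 75.6 CPM with ABA. This was a 6.53-fold rise, with a log2 fold change of 2.71 (standard error 0.17, edgeR FDR = 1.44e-08). SGR2 was at 0.801, 1.06 and 0.960 CPM under control conditions and at 15.2, 16.2 and 23.1 CPM with ABA. It rose 19.3-fold from 16 to 20 reads per library, with a log2 fold change of 4.27 (standard error 0.23, edgeR FDR = 2.57e-09), the largest change among the 33 genes.

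PAO (AT3G44880, chromosome 3, bases 16383595 to 16386344 on the plus strand), the pheophorbide a oxygenase that opens the ring, was at 59.2, 57.1 and 73.2 CPM under control conditions. With ABA it was at 380, 354 and 422 CPM, a 6.10-fold rise with a log2 fold change of 2.61 (standard error 0.13, edgeR FDR = 1.04e-09). PPH (AT5G13800, chromosome 5, bases 4451733 to 4454813 on the minus strand), the pheophytinase that removes the phytol tail, was at 35.3, 38.1 and 54.0 CPM under control conditions and at 149, 138 and 154 CPM with ABA. It rose 3.46-fold, with a log2 fold change of 1.79 (standard error 0.15, edgeR FDR = 2.34e-07). In both genes all ABA libraries lay above all control libraries.

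The genes that turn chlorophyll b back into chlorophyll a rose less. NYC1 was at 330, 346 and 514 CPM under control conditions and at 856, 787 and 1033 CPM with ABA, a 2.25-fold rise. NOL (AT5G04900), its partner in the same reductase, rose 1.96-fold, from 21.0, 23.02 and 25.7 CPM to 44.7, 47.3 and 44.4 CPM. HCAR (AT1G04620), which makes the second reduction of this conversion, rose with a log2 fold change of 0.33 (standard error 0.09), and with library totals in place of TMM factors its value was 0.03 and did not pass. RCCR (AT4G37000), the reductase that follows PAO, was at 39.3 to 53.7 CPM under control conditions and at 49.5 to 56.0 CPM with ABA, and its log2 fold change of 0.13 did not pass the test.

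The chlorophyllases moved in opposite directions. CLH1 (AT1G19670, chromosome 1, bases 6803486 to 6805092 on the minus strand) was at 27.9, 24.5 and 16.4 CPM under control conditions and at 6.56, 3.85 and 2.84 CPM with ABA. This was a 5.14-fold fall, with a log2 fold change of -2.36 (standard error 0.30, edgeR FDR = 1.16e-05), the only fall among the breakdown genes. CLH2 (AT5G43860) rose 2.16-fold, with a log2 fold change of 1.11 (standard error 0.15, edgeR FDR = 1.85e-05). Of the exon windows of CLH2, 73.4% are shared with AT5G43870 on the opposite strand, so its reads are uncertain in the same way as those of GUN4. AT5G43870 fell with a log2 fold change of -1.33. Chlorophyllase also removes the phytol tail, but in Arabidopsis leaves PPH is the enzyme known for this step in senescence.

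**Figure D3:**
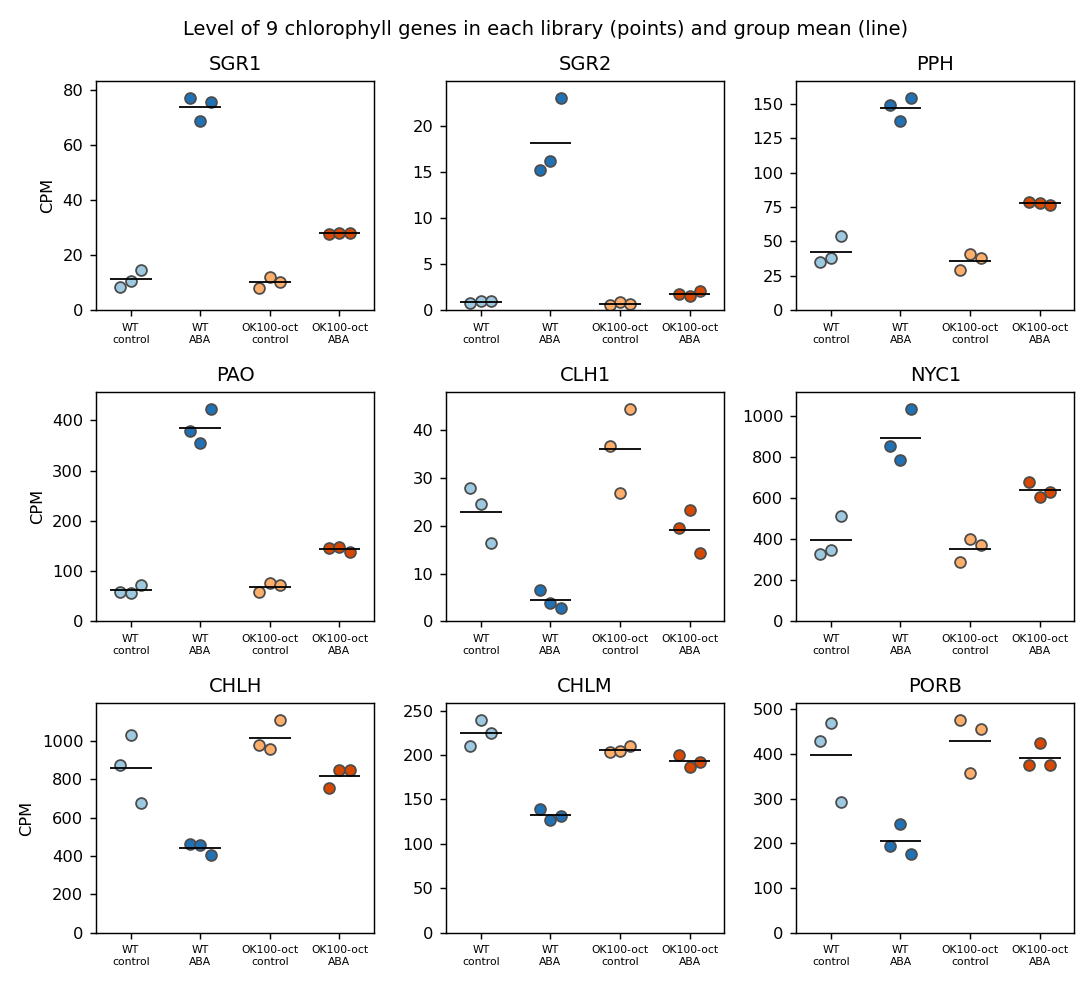
Level in CPM (vertical axes, from 0) of 9 genes in each of the 12 libraries, with points for libraries and lines for group means. SGR1, SGR2, PPH and PAO were higher and CLH1, CHLH, CHLM and PORB lower with ABA in the wild type, and SGR2 with ABA was at 15.2 to 23.1 CPM in the wild type and at 1.55 to 2.12 CPM in OK100-oct.

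In OK100-oct, 13 of the 22 synthesis genes fell with ABA and 1 rose (59.1% and 4.55%), where 26.1% of all tested genes fell and 25.9% rose. The gene that rose was CAO. Of the breakdown genes, 7 rose and 1 fell (70% and 10%). The medians were -0.37 and 0.79, against -0.01 over all tested genes. None of the 32 genes reached 3-fold in OK100-oct, while 3.56% of all tested genes rose and 2.43% fell by that much. Without OK100-oct ABA replicate 3 the fall of CLH1 (a log2 fold change of -0.74, edgeR FDR = 0.0510) did not pass. Without OK100-oct control replicate 2, SGR1 was past 3-fold, at 1.62 on the log2 scale. Without wild-type control replicate 3, 14 synthesis genes fell and 8 breakdown genes rose, the added ones being CHLH and RCCR. Without OK100-oct control replicate 1, 12 synthesis genes fell (PORC was lost) and 8 breakdown genes rose (RCCR was added). With all libraries RCCR lay at the threshold (a log2 fold change of 0.28, edgeR FDR = 0.0508), and it passed in 9 alternative fits. Its estimate was larger than in the wild type (0.13).

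All 18 synthesis genes and all 9 breakdown genes called in the wild type had a smaller estimated change in OK100-oct, and 14 and 8 of them also passed the test there in the same direction. The ratio of the 2 log2 fold changes had a median of 0.60 over the synthesis genes and 0.54 over the breakdown genes. Over all 14136 genes called in the wild type the median ratio was 0.57, near those of both arms. Of these genes, 12577 had a smaller change in OK100-oct, and 9344 also passed the test there in the same direction. Picking genes by their call in the wild type by itself favours a smaller estimate in OK100-oct, so these counts and ratios are a description.

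The members differed in how much of their response was left. In OK100-oct, SGR2 was at 0.561, 0.946 and 0.653 CPM under control conditions and at 1.76, 1.55 and 2.12 CPM with ABA. It still rose, with a log2 fold change of 1.34 (standard error 0.27, edgeR FDR = 0.00114), but the ABA libraries stayed far below those of the wild type. SGR1 was at 7.97, 12.3 and 10.2 CPM and at 27.5, 28.0 and 28.1 CPM with ABA, a 2.75-fold rise. PAO was at 57.8, 76.1 and 71.9 CPM and at 146, 148 and 138 CPM with ABA, a rise of 1.07 on the log2 scale. PPH was at 29.2, 40.7 and 37.9 CPM and at 78.6, 77.9 and 76.9 CPM with ABA, a 2.16-fold rise. In each of these genes the groups did not overlap. CLH1 was at 36.6, 26.8 and 44.3 CPM and at 19.6, 23.3 and 14.2 CPM with ABA, a 1.89-fold fall.

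On the synthesis side, CHLH, CHLM and PORB did not pass the test in OK100-oct with all libraries and TMM factors. CHLH was at 979, 957 and 1108 CPM under control conditions and at 756, 850 and 850 CPM with ABA, with a log2 fold change of -0.31 (standard error 0.14, edgeR FDR = 0.0724). This call was not stable, since CHLH passed with library totals (-0.48, edgeR FDR = 0.0122), in a fit of only the compared groups, without wild-type control replicate 2 or 3, and in DESeq2 (adjusted p = 0.0495). CHLM was at 204, 205 and 210 CPM and at 200, 186 and 192 CPM with ABA, with a log2 fold change of -0.10 (standard error 0.08), and it passed with library totals (-0.27, edgeR FDR = 0.00608). PORB was at 475, 357 and 455 CPM and at 374, 424 and 375 CPM with ABA, with overlapping groups and a log2 fold change of -0.13 (standard error 0.17). DVR fell from 92.5, 75.3 and 95.2 CPM to 51.2, 58.4 and 48.1 CPM, and CAO rose from 108, 119 and 129 CPM to 175, 165 and 175 CPM. PORC fell with all libraries, but did not pass without OK100-oct control replicate 1 or 3 or without OK100-oct ABA replicate 1 or 3 (edgeR FDR from 0.0672 to 0.0918). GSA2 had the largest fall of the arm in OK100-oct, with a log2 fold change of -0.80 (standard error 0.15, edgeR FDR = 0.000788).

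Whether the ABA response differed between the genotypes was tested as the difference of the 2 log2 fold changes, OK100-oct minus wild type, with no minimum size. The difference was higher than 0 for 3 of the 22 synthesis genes (13.6%) and lower for none, where 8.62% of all tested genes were higher and 9.55% lower. Among the 10 breakdown genes it was lower for 4 and higher for 1. Among the values below 0, SGR2 had the largest, -2.93 (standard error 0.37, edgeR FDR = 0.000198), followed by PAO at -1.54 (standard error 0.17, edgeR FDR = 7.04e-05) and SGR1 at -1.25 (standard error 0.24, edgeR FDR = 0.00290). PPH had a difference of -0.68 (standard error 0.21, edgeR FDR = 0.0373), and with library totals it was -0.55 and did not pass (edgeR FDR = 0.0527). All 4 rise with ABA, so a value below 0 is a smaller rise in OK100-oct.

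The other 4 genes fell with ABA in the wild type, and a value above 0 is a smaller fall in OK100-oct. CLH1 had a difference of 1.44 (standard error 0.40, edgeR FDR = 0.0233), PORB 0.82 (standard error 0.24, edgeR FDR = 0.0325), CHLM 0.66 (standard error 0.11, edgeR FDR = 0.00136) and CHLH 0.65 (standard error 0.19, edgeR FDR = 0.0335). For SGR2, PAO, SGR1 and CHLM the test was passed whichever of the 12 libraries was left out. CHLH, PORB and PPH each lost it without 9 of the 12 libraries and CLH1 without 4, with edgeR FDR values of at most 0.0936 in these fits. For NYC1, NOL and CAO, among others, the difference was not detectable with all libraries.

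Wild-type control replicate 3 decided how many synthesis genes differed. Without it, 12 synthesis genes passed in place of 3, all with a smaller fall in OK100-oct, and 6 breakdown genes were lower in place of 4. The added genes were GSA2, HEMC, HEME1, HEME2, HEMF1, CHLI1, CHLI2, DVR and CHLG, together with NYC1 and NOL. Without OK100-oct control replicate 1, 2 synthesis genes passed (CHLH was lost) and the breakdown counts were the same. Leaving out any of 7 other libraries left a single synthesis gene, CHLM. The number of synthesis genes whose response differed is therefore uncertain, while all 19 positive and 3 negative estimates of the arm had the same sign as with all libraries.

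**Figure D4:**
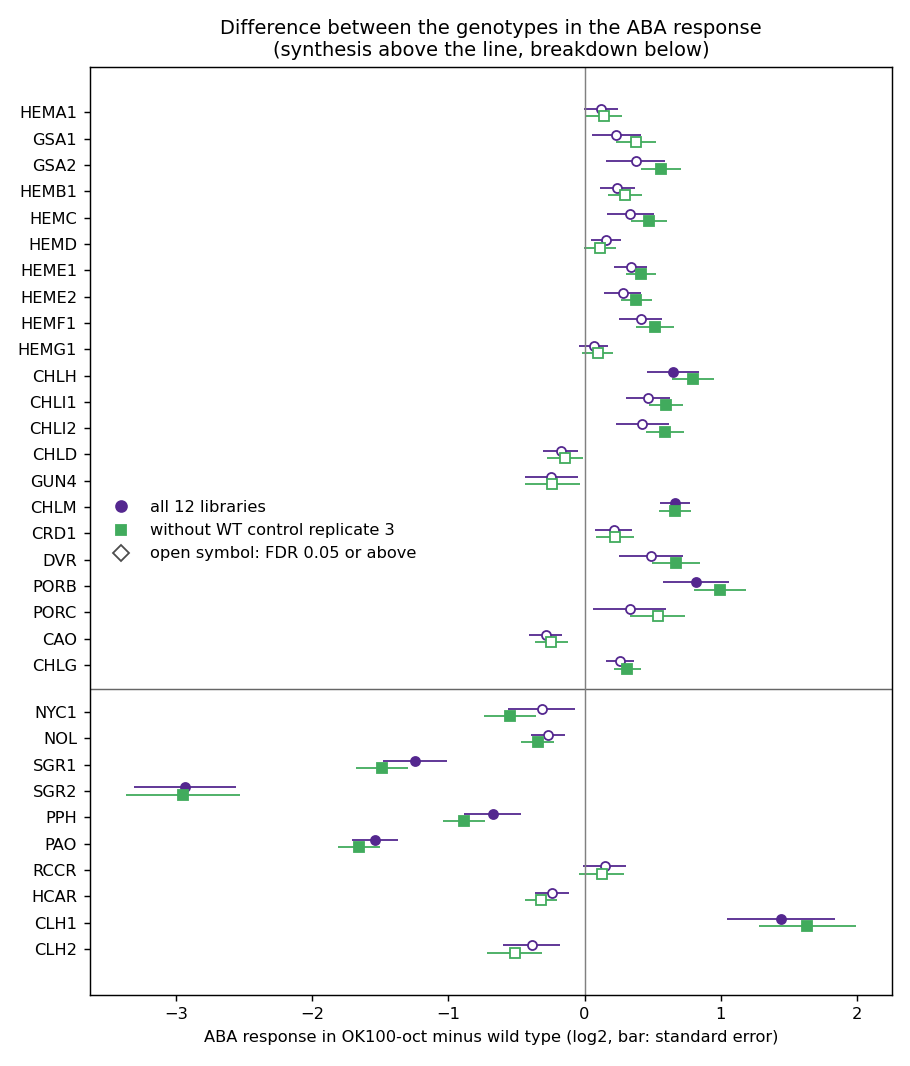
Difference of the ABA responses, OK100-oct minus wild type (log2, horizontal axis), for the 32 tested genes with all 12 libraries (circles) and without wild-type control replicate 3 (squares), with bars for the standard error and open symbols where the FDR was 0.05 or above. The largest differences are -2.93 for SGR2, -1.54 for PAO and 1.44 for CLH1, and more synthesis genes pass without that library (12) than with it (3).

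Before treatment the genotypes differed little. Under control conditions, none of the 22 synthesis genes passed the test and 1 of the 10 breakdown genes was lower in OK100-oct, where 2.58% of all tested genes were higher and 2.29% lower. That gene was NOL, at 21.0, 23.02 and 25.7 CPM in the wild type and at 18.3, 16.5 and 18.5 CPM in OK100-oct. Its log2 fold change was -0.39 (standard error 0.09, edgeR FDR = 0.0279), and it did not pass without wild-type control replicate 3 (-0.31, edgeR FDR = 0.0835) or without any 1 of the 3 OK100-oct control libraries. At an unadjusted p under 0.05 in edgeR, 4 of the 22 synthesis genes were higher in OK100-oct (HEME2, CHLI1, CAO and CHLG), as was CLH1 among the breakdown genes (0.65). The share of all tested genes at this looser threshold is not given here, so these counts cannot be set against it. DESeq2 called CHLG after adjustment. Of the 22 synthesis estimates 21 were above 0, and 15 of 22 without wild-type control replicate 3. Over all 20617 tested genes, 10234 estimates were above 0 with all libraries.

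With ABA more members differed between the genotypes. OK100-oct was higher than the wild type for 15 of the 22 synthesis genes and lower for none (68.2% and 0%), where 21.3% of all tested genes were higher and 20.7% lower. It was lower for 7 of the 10 breakdown genes and higher for 1. Without wild-type control replicate 3, 17 synthesis genes were higher, with HEMG1 and PORC added. Without OK100-oct ABA replicate 2, 11 were higher, with HEMA1, GSA1, HEMC and CHLI2 lost. With each library left out in turn, 11 to 17 synthesis genes were higher and 6 to 7 breakdown genes lower. NYC1 lost its call in 6 of the alternative fits, with an edgeR FDR of up to 0.149. SGR2 was 9.95-fold lower, with a log2 fold change of -3.32 (standard error 0.20, edgeR FDR = 7.47e-08), and CLH1 was 4.26-fold higher, at 2.09 (standard error 0.30, edgeR FDR = 0.000123). These were the only members past 3-fold, against 1.88% of all tested genes lower and 2.63% higher by that much. The largest difference in the synthesis arm was that of PORB, at 0.93. This comparison shares its wild-type libraries with the ABA response of the wild type, so the 2 are not independent.

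The balance within gene families moved as well. Shares were computed from reads per kilobase of exon, and no 50-base window is shared between the paralogs. SGR2 made up 11.1, 11.9 and 8.10% of the reads of SGR1 and SGR2 in the wild-type control libraries and 21.0, 24.2 and 29.2% with ABA. In OK100-oct it made up 8.68 ± 0.74% (SD, n = 3) under control conditions and 8.03 ± 1.15% (SD, n = 3) with ABA, and these 2 means lay within the spread of the libraries. CLH1 made up 66.1 ± 10.14% (SD, n = 3) of the CLH reads in the wild-type control and 14.8 ± 5.51% (SD, n = 3) with ABA. In OK100-oct its share was 72.5 ± 6.66% (SD, n = 3) and 46.2 ± 5.72% (SD, n = 3), and these shares carry the uncertainty of the CLH2 reads.

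The other families kept their balance more closely. PORC made up 14.2 ± 0.77% (SD, n = 3) of the POR reads in the wild-type control, 14.7 ± 0.72% (SD, n = 3) with ABA, 14.5 ± 0.68% (SD, n = 3) in the OK100-oct control and 11.2 ± 0.16% (SD, n = 3) in OK100-oct with ABA. The last group lay below all libraries of the other 3. Over the 12 libraries, CHLI1 held between 86.0 and 89.1% of the CHLI reads, and NYC1 between 91.1 and 94.3% of the reads of the NYC1 and NOL pair. The 2 GSA genes and the 2 HEME genes each stayed near even shares, with group means of 40.9 to 44.1% for GSA1 and 44.1 to 47.8% for HEME1. These shares are a description and were not tested.

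**Figure D5:**
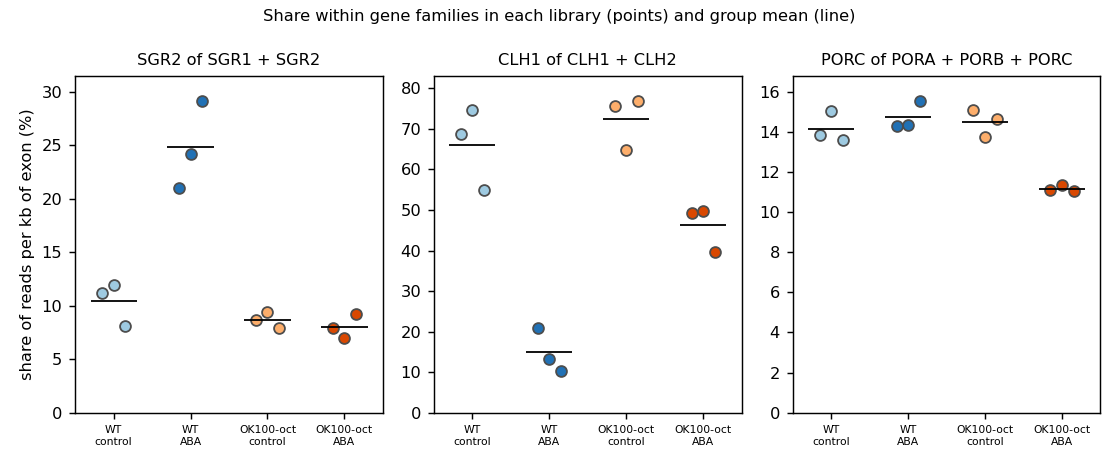
Share of reads per kilobase of exon (percent, vertical axes from 0) of SGR2 among SGR1 and SGR2, CLH1 among the CLH genes and PORC among the POR genes in each of the 12 libraries, with points for libraries and lines for group means. With ABA the share of SGR2 is 21.0 to 29.2% in the wild type and averages 8.03% in OK100-oct, and the share of CLH1 falls from 66.1 to 14.8% in the wild type.

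Genes that neighbour the pathway gave further context. Of 25 tested genes for side branches, later breakdown steps and helpers, 7 rose and 11 fell with ABA in the wild type (28% and 44%, against 32.2% and 36.4% of all tested genes). CYP89A9, a cytochrome P450 that changes the products of ring opening, was at 22.2, 13.9 and 32.5 CPM under control conditions and at 248, 249 and 300 CPM with ABA in the wild type. In OK100-oct it was at 30.6 ± 6.68 CPM (SD, n = 3) and at 60.2 ± 2.45 CPM (SD, n = 3), and the difference of the responses was -2.56 (standard error 0.28). MES16, an esterase that also acts on these products, rose with a log2 fold change of 2.44 in the wild type and 1.84 in OK100-oct. UPM1, at the branch to siroheme, fell by 1.65, and CHLP, the reductase that supplies the phytol tail, fell by 0.84.

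Light-harvesting proteins bind the pigment, and 18 of their genes were followed beside the synthesis arm. Of these, 3 rose and 5 fell in the wild type (16.7% and 27.8%, both below the shares of all tested genes), with a median log2 fold change of -0.08. In OK100-oct 4 rose and none fell (22.2% and 0%, against 25.9% and 26.1%). LHCB1.4 rose by 1.44 and LHCB1.2 fell by 1.26 on the log2 scale in the wild type, and these tandem or related copies may share reads. Of 23 regulators, 14 rose and 5 fell in the wild type (60.9% and 21.7%, against 32.2% and 36.4%). ABF3, a bZIP factor of the ABA pathway, had a log2 fold change of 3.80 in the wild type and 2.66 in OK100-oct, and ORE1, a NAC factor of senescence, 3.80 and 3.11. GLK1, a factor that switches on chlorophyll synthesis genes, had -1.46 and -0.99. Its relative GLK2 changed little, with means of 97.5 CPM under control conditions and 85.7 CPM with ABA in the wild type. In OK100-oct the means of GLK2 were 110 and 105 CPM. Of the 4 senescence markers tested, 3 rose and 1 fell in the wild type (75% and 25%, against 32.2% and 36.4%). There SAG13 rose by 4.36, SEN1 by 1.77 and SAG21 by 1.202 on the log2 scale, and SAG101 fell by 1.08. The counts were the same in OK100-oct, with 3 higher and 1 lower (75% and 25%, against 25.9% and 26.1%). SAG12, the marker most specific to ageing leaves, had no reads in any library.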

How the data were processed

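Paired-end reads were cleaned by the authors with Trimmomatic, aligned to TAIR10 with HISAT2 2.1.0 and counted per gene with HTSeq, and raw counts were deposited, which were checked to be whole numbers. The versions of Trimmomatic and HTSeq, the RNA kit and the library kit differ between the study's methods and its processing notes. The counts were fitted in edgeR 4.0.16 (R 4.3.3) with TMM factors, filterByExpr, 1 quasi-likelihood model of the 4 group means and Benjamini-Hochberg adjustment over 20617 genes, so that FDR < 0.05 was called. DESeq2 1.42.0 was an alternative. CPM are counts scaled by library total times TMM factor. The p-values measure the spread between libraries labelled as replicates, with 3 per group, and the biological coefficient of variation was 11.9%. The models were tested on simulated data.

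The members and all gene lists were chosen with earlier results of these data known. Values per library are given for members past the FDR and 3-fold in any comparison, members that differ between the genotypes in their ABA response, and the member with the largest change in each direction of each arm. Values of other members, among them GUN4, HEMA1, CRD1, NYC1, NOL, RCCR and PORA, were added after their values were seen. Of the other lists, genes past the FDR and 3-fold could be named, and CHLP, LHCB1.2, LHCB1.4, GLK1, GLK2 and SAG12 were chosen after their values were seen. SAG101 is named as well, although its fall in the wild type was below 3-fold. Alternatives were other scalings, filters and tests, a replicate block, fits of the compared groups or nuclear genes only, a pseudocount of 0.1 in place of 1, and each library left out in turn. Plots were made in Python 3.11.15 with matplotlib 3.10.9.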

Additional observations from a re-analysis of the deposited data

Results flagged for a closer look

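The ABA response differed between OK100-oct and the wild type in 8 of the 32 tested genes, by edgeR's test of the difference of the log2 fold changes (OK100-oct minus wild type). The values below 0 were those of SGR2 (AT4G11910) at -2.93, PAO (AT3G44880) at -1.54, SGR1 (AT4G22920) at -1.25 and PPH (AT5G13800) at -0.68 (-0.675). The values above 0 were those of CLH1 (AT1G19670) at 1.44, PORB (AT4G27440) at 0.82 (0.817), CHLM (AT4G25080) at 0.66 (0.662) and CHLH (AT5G13630) at 0.65 (0.649). In each case the response was smaller in OK100-oct. Their cause was not tested.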

How the results depend on the processing

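The direction of each arm and the calls of SGR1, SGR2, PPH and PAO with ABA held under the 9 other settings and without each of the 12 libraries. Library totals in place of TMM factors moved the median log2 fold change of all genes from -0.06 to -0.37 in the wild type (4242 genes higher and 10516 lower, against 6636 and 7500), from -0.01 to -0.18 in OK100-oct (3640 and 7722, against 5348 and 5372) and from 0.05 to 0.18 for the difference of the responses (3027 and 1377, against 1778 and 1969). For OK100-oct against the wild type with ABA it moved from 0.02 to 0.17 (6336 and 2799, against 4399 and 4276). Relative to these shifts the arms stayed on opposite sides. With these totals the medians of the synthesis and breakdown genes were -1.06 and 0.84 in the wild type, -0.54 and 0.62 in OK100-oct, and 0.64 and -0.42 for OK100-oct against the wild type with ABA. There 1 synthesis gene rose in the wild type, 8 synthesis genes differed in their response, and CHLD fell (-0.21, from 0.10). The cause was not tested.

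In fits of only the compared groups, 2 synthesis genes rose in OK100-oct, and 0 breakdown genes were lower in OK100-oct under control conditions. DESeq2 called 1 synthesis gene lower (CAO) in the difference of the responses and 1 higher (CHLG) under control conditions. Same-numbered libraries did not pair, with correlations of their deviations between -0.49 and 0.38. The replicate block took the call of NOL under control conditions (0 breakdown genes lower) and that of CHLH in the difference of the responses (0.64, edgeR FDR = 0.0545).

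With each library left out in turn, 1 to 12 synthesis genes and 0 to 1 breakdown genes were higher in the difference of the responses. Synthesis genes higher with ABA in OK100-oct numbered 1 to 2, and breakdown genes lower 0 to 1. Under control conditions, 0 to 1 synthesis genes were higher and 0 to 1 breakdown genes lower in OK100-oct. The median of the breakdown genes in OK100-oct was 0.72 to 0.88, and that of the synthesis genes between the genotypes with ABA 0.38 to 0.53. For single genes, 1753 values passed the test in the main edgeR fit, in the alternative fit or in both. Of these, 1633 passed in both with the same sign, 60 lost a call and 59 gained one. Values that passed in neither fit are not counted. The remaining 1, CHLD in the wild type under library totals, was not called with TMM factors and was called with the opposite sign. Genes that were not called changed sign as well, 8 of them under control conditions without wild-type control replicate 3, and 4 in OK100-oct and 3 between the genotypes with ABA under library totals. Depth limits SGR2 and PORA, with as few as 15 and 1 reads in a library.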
